A study of Mus musculus with 9 samples.

Results

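L654 is a lipid that gut bacteria make and that the cell recognises through Toll-like receptor 2 (TLR2). The comparison described here asked what giving L654 did to gene expression in spleen monocytes of mice that had first been gavaged with the antibiotic vancomycin. RNA sequencing covered 9 libraries in all, from female C57BL/6 mice aged 8 to 10 weeks, with 3 mice in each of 3 groups. Van mice received 2 mg of vancomycin per mouse per day, as 2 gavages of 1 mg, on 6 days, followed by a rest without antibiotic that lasted 8 days by the study's account of these mice (6 to 8 days per the labels). VanLip mice had the same gavage and rest, and were also given L654 by retro-orbital injection on days 7, 9 and 11. Con mice were gavaged with water, and their libraries serve here as a background level and as part of the fit that sets the spread between replicates. Monocytes were taken from the spleen by negative magnetic selection and their RNA was sequenced with no stimulation outside the animal. The study's injection protocol used PBS as the vehicle control, but neither the labels nor the description of the sequenced groups says whether these Van mice received it; if they did not, the lipid and the injection cannot be told apart in VanLip against Van. That protocol names a lower and a higher dose of L654, and which of them the VanLip mice received is not given in the sources used here.

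Genes were taken as members where their mean FPKM (a level scaled for transcript length and for the fragments mapped in a library) over the 6 Van and VanLip libraries was 1 or more, leaving out names that mark pseudogenes or unnamed gene models. This gave 10498 members of the 46072 genes listed, of which 9675 were protein coding with 2 or more exons and 823 were of other kinds. A further 1191 genes at that level were left out by name. Of the members, 10301 reached an FPKM of 1 in both groups, 111 passed only through their VanLip level and 86 only through their Van level. A difference between the groups is favoured by the rule in the latter kinds, which are pointed out where they are named (Hspa1l, Slc7a11, Upb1, H2-Q2 and Siglech, and the small RNA gene Rnu2-10). Just inside the limit stood Hist1h2al and Slc6a12 at a mean FPKM of 1.00, and just outside it Foxm1 at 0.998.

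Monocytes are circulating myeloid cells that are made in the bone marrow and are held in reserve in the spleen. They carry Toll-like receptors and other receptors for microbial products, whose signals run through the adaptor MYD88 to NF-kB and are kept in check by phosphatases, SOCS proteins and other inhibitors. Heat shock factor 1 drives the cytosolic chaperones, which fold new and damaged proteins, and the glucocorticoid receptor drives a set of anti-inflammatory and metabolic genes in most leukocytes.

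Genes that define monocytes were abundant. In the 6 libraries compared, Csf1r, the receptor for the monocyte growth factor, lay at an FPKM of 541 to 643, Itgam, which encodes CD11b, at 174 to 240, and Lyz2, which encodes lysozyme, at 6428 to 9154. The T cell gene Cd3e and the NK cell gene Ncr1 lay under 0.75, and the neutrophil gene Ly6g was listed at 0 in every library. Transcripts of other cells were still present. Over all listed genes, members or not, the summed FPKM in the 6 libraries was 94.1 to 132 for 15 neutrophil genes. It was 26.0 to 36.8 for 15 B cell genes and 18.3 to 30.3 for 20 T and NK cell genes. None of the members of these 3 lists (6, 6 and 4 genes) was called by DESeq2 or edgeR. At an unadjusted p under 0.05, 1 neutrophil gene was lower and 1 B cell gene higher, and 2 neutrophil genes were called lower without VanLip1. Over 16 genes of red pulp macrophages, many of which monocytes also express, the sum was 2421 to 3155 in Van and 2196 to 2651 in VanLip, 13 of the 16 had a negative log2 change, and Vcam1, an adhesion molecule, was called lower by 0.50 (5 were called without VanLip3). Haemoglobin transcripts were present and uneven, as Hba-a1 lay at 134, 227 and 100.0 in the Van libraries and at 80.3, 349.7 and 319 in the VanLip libraries. Of 11 erythroid genes, 10 had a positive log2 change, with a median of 0.68, and Bpgm, an enzyme of red cell metabolism, was called higher by both tests (4 were called higher without VanLip1). The summed FPKM of all 14 erythroid genes listed, members or not, was 355 to 788 in Van and 291 to 1186 in VanLip. The VanLip libraries were also deeper, with 42625868 to 46180176 fragments against 18829070 to 23018927 in Van, and the size of 1 read in the counts fitted a read length of 150 bases against 100, although the study names a single read length for all libraries. Depth and this inferred read length coincide with the group and cannot be told apart from it. VanLip3 stood apart from the other VanLip libraries: on the first principal component of the protein-coding members, which held 34.7% of the variance, VanLip1 and VanLip2 lay at 24.6 and 22.1, VanLip3 at -5.93 and all 6 Con and Van libraries between -14.1 and -3.30. Some RNAs that carry no poly(A) tail differed too. The ribosomal RNA gene Rn18s-rs5 had an FPKM of 365, 289.9 and 437 in Van and 1353, 1105 and 811 in VanLip, and Rn7s1, Rn7s2, Rn7sk, Rnu1a1 and Rnu2-10, all small non-coding RNAs, were likewise called higher in VanLip (log2 changes of 1.24 to 2.40). By class, 3 of 5 misc_RNA genes, 2 of 2 snRNA genes and 1 of 30 rRNA genes were called higher and 0 lower. Of 37 snoRNA genes 0 were called. Of 22 mitochondrial tRNA genes 1 was lower, and of 63 microRNA genes 1 was higher and 4 were lower. The part that the differences given in this paragraph have in the results below was not tested.

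A member was called where DESeq2's Wald test gave an adjusted p of 0.05 or under. Between VanLip and Van, 1267 of 10496 members with an adjusted p were called, which is 12.1%, against 9.86% of all 18025 genes tested. Of these calls, 556 were higher in VanLip (826 of all 18025 genes tested, 4.58%) and 711 were lower (951 of all genes tested, 5.28%). The members are themselves among the genes tested. Among protein-coding members with 2 or more exons, 501 were higher and 672 lower. Both DESeq2 and edgeR's quasi-likelihood test called 592 of the 10496 members, 247 higher and 345 lower, against 855 of all 18025 genes tested (4.74%). Changes were mostly small: the median size of a called change was 0.37 on the log2 scale, and 68 of the 1267 called members changed by a log2 value of 1 or more. Which direction held the majority depended on the scaling: with median-of-ratios size factors 43.9% of the calls were higher in VanLip, and with TMM library sizes 55.8% were, 732 higher and 580 lower. Without VanLip3 there were 1239 calls, without Van1 768 and without Van2 764. The number called by both tests fell to 267 without Van1, 213 without Van2, 294 without Van3, 392 without VanLip1, 360 without VanLip2 and 319 with the Van and VanLip libraries alone, and the calls higher in VanLip to 338 without Van1, 303 without Van2 and 354 without VanLip1. The calls lower in VanLip numbered 430 without Van1 and 461 without Van2.

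**Figure D1:**
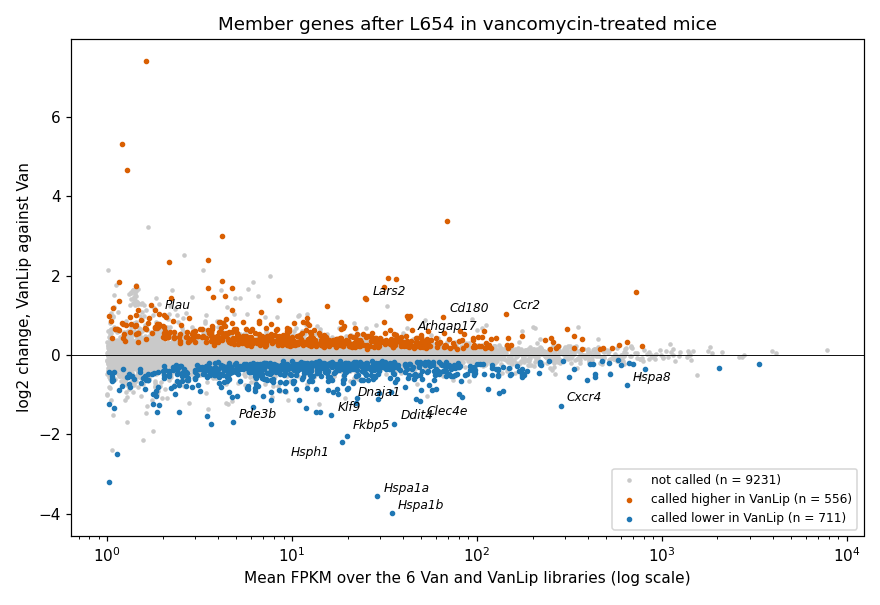
Each point is a member gene, with its mean FPKM over the 6 Van and VanLip libraries on a log axis and its log2 change between VanLip and Van from DESeq2. Of the 10498 genes, 556 are marked as called higher and 711 as called lower in VanLip; Hspa1b lies lowest, at a log2 change of -3.99, and most called genes lie within 1 log2 unit of 0.

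The clearest group among the genes called lower in VanLip was that of chaperones, most of them cytosolic. Their list, like the others, was written with earlier results of these data known. Of 32 members on a list of chaperone genes known to answer to heat shock factor 1, 20 fell in VanLip and none rose, and 18 of the 20 fell by edgeR as well. At an unadjusted p under 0.05, 22 were lower and 0 higher. The median log2 change over the list was -0.48, against 0.0082 over all members. Hsph1, an HSP110 protein that recharges HSP70 with nucleotide (chromosome 5, 149614287 to 149636376, minus strand), had an FPKM of 27.8, 34.0 and 31.1 in the 3 Van libraries, 4.60, 7.51 and 7.18 in the 3 VanLip libraries and 10.0, 8.05 and 8.91 in Con. Every VanLip library lay below every Van library, by 4.57-fold on the fitted scale (log2 change -2.19 ± 0.15, SE, adjusted p = 2.30e-43). Dnaja1, an HSP40 protein that delivers clients to HSP70 (chromosome 4, 40722150 to 40737149, plus strand), had the lowest adjusted p of all members: its FPKM was 60.4, 63.8 and 63.5 in Van and 31.4, 30.5 and 29.7 in VanLip (log2 change -1.11 ± 0.06, adjusted p = 6.36e-87). Its VanLip levels also lay below the Con levels of 42.6, 38.9 and 42.1.

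The abundant chaperones moved the same way with smaller changes. Hspa8, the constitutive HSP70 of the cytosol (chromosome 9, 40800984 to 40810087, plus strand), had an FPKM of 808, 857 and 793 in Van against 431, 477 and 506 in VanLip (log2 change -0.76 ± 0.07, adjusted p = 9.26e-25). Hsp90aa1, the inducible HSP90, went from 78.0, 81.6 and 71.5 to 41.8, 43.8 and 44.5 (log2 change -0.86 ± 0.08), and Hsp90ab1, the constitutive form, from 466, 502 and 456 to 270.5, 324 and 331 (log2 change -0.63 ± 0.10). In all of these genes the lowest Van library was above the highest VanLip library. The cochaperones that hand clients from HSP70 to HSP90 or tune its cycle fell as well: Stip1 by 0.94, Fkbp4 by 0.64, Ptges3 by 0.61 and Ahsa1 by 0.44 on the log2 scale. Cacybp, which binds the HSP90 system and a ubiquitin ligase, fell by 0.70 and Chordc1, another HSP90 cochaperone, by 0.87. The mitochondrial chaperonin genes Hspd1 and Hspe1, which share a start region on chromosome 1, fell by 0.45 and 0.31, the second by DESeq2 only.

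The largest falls of any called member were in the stress-inducible HSP70 genes Hspa1b and Hspa1a on chromosome 17. Hspa1b had an FPKM of 63.4, 65.0 and 66.8 in Van and 1.97, 5.99 and 4.44 in VanLip, and Hspa1a one of 50.4, 54.8 and 54.8 and 2.77, 6.37 and 4.53 (log2 changes -3.99 ± 0.46 and -3.56 ± 0.43). Both genes are single exons and near-identical copies, so reads may have been split between them. Con did not follow the pattern of Hsph1 here, because the Con libraries were spread widely for both genes, at 57.0, 28.7 and 83.3 for Hspa1b and 48.4, 24.9 and 75.3 for Hspa1a. Their testis-expressed neighbour Hspa1l, which has 2 exons, was lower too but is a member only through its Van level: its FPKM was 1.64, 1.88 and 2.25 in Van against 0.266, 0.480 and 0.286 in VanLip (log2 change -2.49 ± 0.45, adjusted p = 2.39e-06). The factors themselves were not called: Hsf1 had a log2 change of -0.14 ± 0.09 (adjusted p = 0.434) and Hsf2 one of -0.04 ± 0.10 (adjusted p = 0.895).

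**Figure D2:**
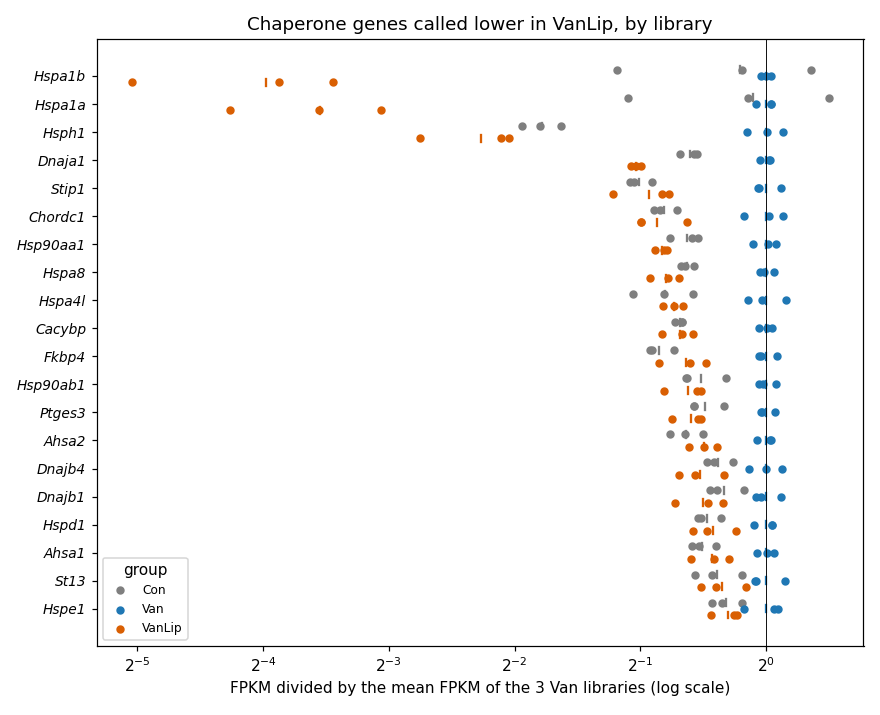
The 20 chaperone genes called lower in VanLip are shown with each library's FPKM divided by the mean of the 3 Van libraries, on a log axis; points are libraries, short vertical lines are group means (n = 3), and colours mark Con, Van and VanLip. For Hsph1 and Dnaja1 both Con and VanLip lie left of Van, whereas for Hspa1b and Hspa1a only VanLip lies far to the left.

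Short stretches of the start regions of these genes are shown because heat shock factor 1 is known to bind inverted repeats of GAA there. Promoter windows of 250 bases before and 50 after each start were taken from RefSeq (build GRCm38.p6), and both strands were searched for GAANNTTC and TTCNNGAA, which can overlap each other. RefSeq lists several starts for some genes, and a gene was counted where any of its windows held a match. The stretches printed for Dnaja1, Hsph1, Chordc1 and Dnajb4 belong to starts that lie inside the GENCODE span of the gene. Of the 20 chaperones called lower, 16 had a window, and 9 of the 16 (56.3%) held a match. The share was 15.1% over all 32851 windows, 17% over the 27025 genes with a window, 14.1% over the 7565 coding members with a window and 14.6% over the 501 coding members called lower with a window. Among the 10 chaperones of the list that were not called and had a window, 3 held a match. The list was made of genes known to answer to heat shock factor 1, so a high share against all genes was built in. That share does not bear on VanLip against Van. Capitals mark the matched letters, in windows of 30 bases read on the strand of the gene:
Hsph1 (chr5:149636287-149636316, minus strand): agtaaaatgctgcagaTTCTGGAAAGTTCt
Dnaja1 (chr4:40722333-40722362, plus strand): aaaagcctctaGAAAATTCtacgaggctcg
Hspa1b (chr17:34959324-34959353, minus strand): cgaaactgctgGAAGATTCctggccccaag
Chordc1 (chr9:18292259-18292288, plus strand): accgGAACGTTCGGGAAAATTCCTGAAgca
Fkbp4 (chr6:128438789-128438818, minus strand): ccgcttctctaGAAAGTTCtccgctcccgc
Hspe1 (chr1:55088053-55088082, plus strand): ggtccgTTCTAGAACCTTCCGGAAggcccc
Dnajb4 (chr3:152193841-152193870, minus strand): ttcgttcgctgTTCTAGAAagtacagagac
The windows of Hspa1b and Hspa1a carried the same letters, as did those of Hspd1 and Hspe1 read on opposite strands, and each of these genes was counted among the 9. Runs of overlapping matches stood in Hsph1, Chordc1 and the window shared by Hspd1 and Hspe1, whereas Dnaja1, Hspa1b, Fkbp4 and Dnajb4 held single matches. A match is a description of the letters and was not tested as a binding site.

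Other chaperones shifted less. All 8 members of the CCT complex, which folds actin and tubulin, had negative log2 changes, from -0.28 to -0.05, and 3 of the 8 fell past the threshold: Cct4 (-0.28 ± 0.05), Cct3 (-0.27 ± 0.08) and Cct8 (-0.17 ± 0.06), of which edgeR called only Cct4. The list held 1 fall without Van1, Van2 or VanLip1 in turn. Of 23 chaperones of the endoplasmic reticulum, 4 fell and none rose, with 10 lower and 0 higher at an unadjusted p under 0.05. Hspa5, the main HSP70 of that compartment, had an FPKM of 203, 235 and 196 in Van and 158, 160.1 and 168 in VanLip (log2 change -0.41 ± 0.10, adjusted p = 0.00148), and Herpud1, Syvn1 and Hsp90b1, which act in the degradation and folding of secretory proteins, fell by 0.40, 0.40 and 0.32, the last by DESeq2 only. Without VanLip3 this list held 9 falls, and limma on log2(FPKM + 1) called 0 of the 23. Without VanLip2 it held 3 falls and 1 rise. Of 22 genes of the ATF4 stress response, 5 fell, of which Slc7a11 is a member only through its Van level. They included Cebpg (-0.64 ± 0.09) and Atf3 (-0.55 ± 0.10), and the list's median was -0.03. Atf3, an AP-1 family repressor, was abundant at 389, 357 and 371 in Van and 273, 254 and 239.6 in VanLip.

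Several genes induced by glucocorticoids fell as well. Of 22 members on the list, 9 fell and none rose, 7 of the 9 by edgeR too, and the median log2 change was -0.31. At an unadjusted p under 0.05, 11 were lower and 0 higher, and limma on log2(FPKM + 1) called 3 lower. Fkbp5, a cochaperone that restrains the receptor and serves as a marker of its activity (chromosome 17, 28399094 to 28517527, minus strand), had an FPKM of 25.2, 26.7 and 43.8 in Van, 8.24, 9.89 and 5.13 in VanLip and 3.79, 5.64 and 3.85 in Con. The VanLip levels lay between the other groups with no overlap except that VanLip3, at 5.13, lay within the Con range (VanLip against Van, log2 change -2.05 ± 0.35, adjusted p = 3.59e-07). Klf9, a transcription factor induced by the receptor (chromosome 19, 23141226 to 23168134, plus strand), went from 24.7, 22.2 and 25.6 in Van to 9.05, 9.41 and 6.90 in VanLip (log2 change -1.52 ± 0.12, adjusted p = 1.24e-31), below its Con levels of 12.6, 13.5 and 14.6. Per1, a clock gene that the receptor also induces, went from 126, 104 and 101 to 62.8, 57.3 and 46.7 (log2 change -1.06 ± 0.13). Tsc22d3, which encodes the anti-inflammatory protein GILZ, went from 164, 174 and 184 to 63.2, 119.7 and 83.0 (log2 change -0.95 ± 0.18), and Ddit4, an inhibitor of mTOR complex 1, from 52.7, 49.0 and 62.8 to 8.89, 16.9 and 23.8 (log2 change -1.74 ± 0.38). For each of these genes Van and VanLip stood apart, though VanLip libraries differed among themselves, as Tsc22d3 in VanLip2 was as high as in the lowest Con library. Nr3c1, the receptor gene, was not called (log2 change -0.05 ± 0.06, adjusted p = 0.722). Jdp2, an AP-1 repressor, and Arrdc3, an arrestin-family adaptor, also fell, by 1.43 and 1.11. Among 25 immediate early and AP-1 genes, Fosb (-0.45 ± 0.10), Jund (-0.50 ± 0.11) and Jun (-0.54 ± 0.14) fell, Junb (0.33 ± 0.11) and Batf3 (0.45 ± 0.15) rose, and Jun, Junb and Batf3 were called by DESeq2 only. On this list 20 log2 changes were negative and 5 positive, with a median of -0.21. At an unadjusted p under 0.05, 9 were lower and 2 higher. Neither rise was called without Van1, Van3 or VanLip1 in turn, and 1 was without Van2 or VanLip2. The list held 5 falls without VanLip1 or Con2 in turn, and 0 rises after the correction for GC content and length. Fos was not called (log2 change -0.15 ± 0.25, adjusted p = 0.824).

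Some genes of cyclic AMP signalling were called too. Of 26 members, 7 fell and 1 rose, and edgeR called 5 of the falls and the rise as well. The list's median log2 change was -0.07, with 17 negative and 9 positive values, so that most members did not share the shift. Pde3b, a phosphodiesterase that breaks down cyclic AMP (chromosome 7, 114415281 to 114539251, plus strand), had an FPKM of 7.64, 7.20 and 6.93 in Van and 2.64, 2.05 and 2.12 in VanLip, which is 3.25-fold lower on the fitted scale (log2 change -1.70 ± 0.11, adjusted p = 2.65e-48). Its VanLip levels overlapped the Con levels of 1.99, 2.19 and 1.98. Crem, a transcription factor that answers to cyclic AMP, went from 10.2, 9.94 and 9.63 to 4.52, 3.85 and 3.53 (log2 change -1.04 ± 0.13, adjusted p = 1.68e-12), and its VanLip libraries again lay below every Van library. Pde8a (-0.45 ± 0.08), the kinase subunit gene Prkar2a (-0.32 ± 0.06) and Creb1 (-0.25 ± 0.07) fell less. The adenosine receptors went opposite ways, as Adora2a rose (0.60 ± 0.14) and Adora2b fell (-0.51 ± 0.17), the latter by DESeq2 only. Other genes with a very low adjusted p on the lower side were Cyth1, an exchange factor for ARF GTPases (chromosome 11, 118132019 to 118248592, minus strand), Ugcg, which makes glucosylceramide, the transcription factor Rfx2 and the ubiquitin ligase gene Trim65. Cyth1 went from 53.5, 50.9 and 50.5 in Van to 31.1, 29.9 and 28.6 in VanLip (log2 change -0.81 ± 0.06, adjusted p = 1.64e-33). Its close relative Cyth3 was called higher, by 0.56, with overlap between the groups in FPKM and no call by edgeR.

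**Figure D3:**
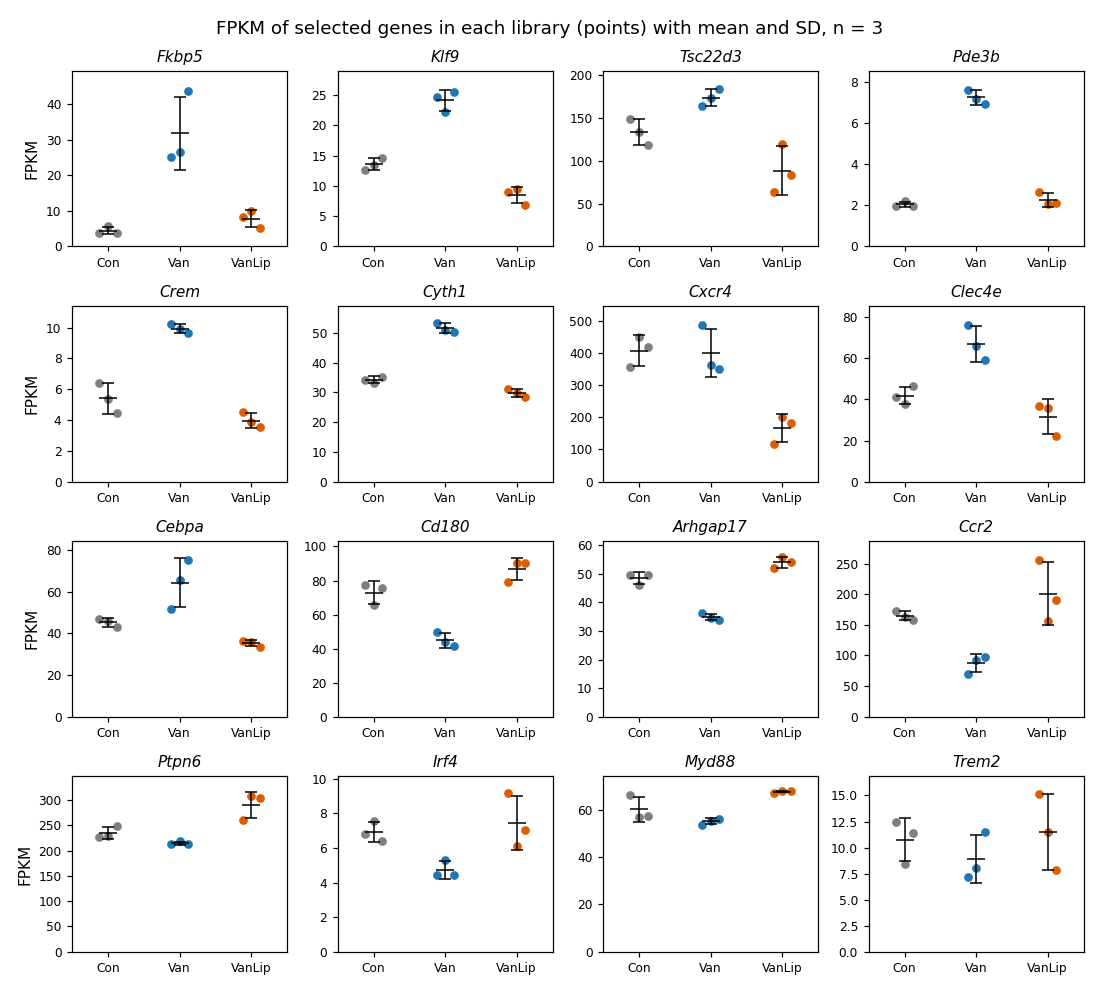
FPKM in each library is plotted for 16 genes, with points for libraries, horizontal marks for group means and error bars for SD (n = 3 per group). Fkbp5, Klf9, Pde3b, Crem and Cyth1 stand higher in Van than in VanLip, Cd180, Arhgap17 and Ccr2 stand lower in Van than in VanLip, and the 2 groups overlap for Trem2.

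Receptors for microbial products did not move in a single direction. Of 27 pattern recognition receptors and their adaptors outside the TLR2 pathway, 2 rose and 6 fell. Cd180, a TLR4-like surface receptor also known as RP105 (chromosome 13, 102693558 to 102739629, plus strand), had an FPKM of 49.5, 43.6 and 41.3 in Van, 79.2, 90.5 and 90.0 in VanLip and 77.6, 65.3 and 75.8 in Con (VanLip against Van, log2 change 0.96 ± 0.10, adjusted p = 1.63e-19). All 3 VanLip libraries lay above all Van and Con libraries. Clec12a, an inhibitory lectin, rose by 0.34. On the lower side, Clec4e, the mycobacterial glycolipid receptor Mincle, went from 76.5, 65.9 and 59.2 to 37.0, 36.1 and 21.96 (log2 change -1.16 ± 0.18, adjusted p = 6.64e-09), and its partner Clec4d from 15.9, 17.9 and 17.5 to 10.1, 4.93 and 5.22 (log2 change -1.35 ± 0.23). Nod2, a cytosolic sensor of peptidoglycan fragments, went from 10.6, 9.47 and 9.06 to 5.71, 5.98 and 6.60 (log2 change -0.68 ± 0.12). Unlike those of Clec4e and Clec4d, its Con levels of 15.6, 11.6 and 11.6 lay above those of Van. Tlr8 (-0.43 ± 0.08), Mavs (-0.51 ± 0.13) and Tlr13 (-0.22 ± 0.07) fell less, and edgeR did not call Tlr13.

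Along the TLR2 pathway itself, 2 of 18 members rose and 1 fell. Myd88, the shared adaptor, had an FPKM of 53.8, 55.4 and 56.2 in Van and 67.3, 67.9 and 67.8 in VanLip, with no overlap (log2 change 0.28 ± 0.08, adjusted p = 0.00627). Tab1, which activates the kinase TAK1, rose by 0.41, and Peli1, a ubiquitin ligase of the pathway, fell by 0.26 by DESeq2 only. Tlr2 (log2 change -0.12 ± 0.18, adjusted p = 0.797) and Tlr6 (0.08 ± 0.13, adjusted p = 0.823), which form the receptor pair for L654, were not called, nor was Irak1 (0.02 ± 0.06, adjusted p = 0.895). The cytokine genes Il6 and Tnf were not called either: Il6 lay between 0.283 and 0.879 in the 6 libraries, which is below the member limit, and Tnf between 3.72 and 7.20. Of 31 cytokine and chemokine members, Ccl4 alone was called (log2 change -0.66 ± 0.22, lower, by DESeq2 only).

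Some inhibitors of these pathways were called higher. Of 31 negative regulators of TLR signalling, 5 rose and none fell, with 8 higher and 2 lower at an unadjusted p under 0.05, and edgeR called 4 higher and 0 lower. The list's median was 0.0031, against 0.0082 over all members, so that most of its members did not share the shift. Ptpn6, the phosphatase SHP-1 that restrains myeloid receptors, had an FPKM of 213, 218 and 213 in Van and 261, 307 and 303 in VanLip (log2 change 0.44 ± 0.07, adjusted p = 6.61e-08). Socs3, the inhibitor of JAK and STAT3 signalling, went from 56.7, 54.4 and 49.9 to 67.0, 92.9 and 76.0 (log2 change 0.54 ± 0.12), and Stat3 itself fell by 0.38. Irf4, a transcription factor that competes for MYD88, went from 4.43, 5.31 and 4.42 to 9.14, 6.13 and 7.02 (log2 change 0.65 ± 0.15, adjusted p = 5.82e-04). Rhoh and Cd300lf rose by 0.41 and 0.37, the second by DESeq2 only. This count depended on single libraries, as 3 rose without Van2, 3 rose and 2 fell without Van3, 4 rose and 1 fell without VanLip1, and 5 rose and 3 fell without VanLip3. Trem2, a lipid-binding receptor that dampens TLR signals, was not called: its FPKM was 7.16, 8.00 and 11.5 in Van and 15.2, 11.5 and 7.83 in VanLip, and the groups overlapped (log2 change 0.61 ± 0.27, adjusted p = 0.133). Aim2, a cytosolic DNA sensor, rose from 43.4, 39.1 and 41.6 to 51.5, 50.7 and 59.7 (log2 change 0.44 ± 0.08, adjusted p = 4.69e-07), and Pycard, the inflammasome adaptor, rose by 0.31 by DESeq2 only. Among 19 NF-kB subunits and inhibitor proteins, Pdlim2, Commd1 and Ikbkg rose by 0.38, 0.34 and 0.23, the last by DESeq2 only, and Nfkbia, the feedback inhibitor IkB-alpha, fell by 0.40 by DESeq2 only. None of 40 interferon-stimulated genes and none of 15 guanylate-binding proteins and related GTPases was called by DESeq2 or edgeR, with 1 and 0 of them at an unadjusted p under 0.05.

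Some genes of monocyte migration and identity were called. Of 13 chemokine and chemotactic receptors, 3 rose and 1 fell. Ccr2, which brings classical monocytes out of the marrow and into tissue (chromosome 9, 124101950 to 124113557, plus strand), had an FPKM of 70.4, 93.0 and 98.2 in Van, 256, 156 and 190.3 in VanLip and 173, 163 and 159 in Con (VanLip against Van, log2 change 1.04 ± 0.18, adjusted p = 7.38e-07). Van lay below both other groups. Cx3cr1, the receptor of nonclassical monocytes, rose by 0.43 and Ltb4r1, the leukotriene B4 receptor, by 0.63, the second by DESeq2 only. Cxcr4, which retains cells in the marrow, went from 488, 364 and 351 in Van to 117, 201 and 182 in VanLip (log2 change -1.28 ± 0.18, adjusted p = 3.89e-10), while Con stood with Van at 356, 451 and 419. Of 17 classical monocyte genes, Ccr2, Ly6c2 (0.39 ± 0.13) and Itgb7 (0.40 ± 0.13) rose and none fell, and of 20 nonclassical monocyte genes, Ear2 (0.48 ± 0.08), Cx3cr1 and Eno3 (0.60 ± 0.19) rose and none fell. Ly6c2, Itgb7 and Eno3 were called by DESeq2 only, so that edgeR called 1 higher on the first list and 2 on the second, and 0 lower on both. At an unadjusted p under 0.05 these lists held 2 and 0 lower genes. On the classical list 14 of 17 log2 changes were positive, with a median of 0.26. On the nonclassical list 11 of 20 were positive, with a median of 0.05. The classical list held 1 rise without Van1, Van2 or VanLip2 in turn, and 1 fall without Van1 or VanLip2. Because whole populations were sequenced, a change in the share of a cell type and a change of its RNA per cell cannot be told apart here or below. Of 13 dendritic cell markers, Irf8, Clec9a, Batf3 and Siglech were called higher, of which edgeR called only Irf8, and Siglech is a member only through its VanLip level. Without Van1, Van3 or VanLip3 in turn 2 were called, and without VanLip1 only 1. The summed FPKM of all 17 dendritic cell markers listed, members or not, was 250 to 275 in Van and 307 to 318 in VanLip. The part of dendritic cells in the results on Irf4, Irf8 and Batf3 was not tested. Of 5 plasma cell markers, Irf4 and Sdc1, the latter by DESeq2 only, were called higher and Prdm1 was called lower by both tests. The summed FPKM of all 7 plasma cell markers listed, members or not, was 45.2 to 53.5 in Van and 50.7 to 71.7 in VanLip. The part of plasma cells in the results on Irf4 and Prdm1 was not tested.

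Among 26 myeloid transcription factors, 3 rose and 6 fell. Cebpa, the factor that sets the myeloid fate, went from 51.9, 65.7 and 75.1 in Van to 36.2, 35.9 and 33.5 in VanLip (log2 change -0.87 ± 0.12, adjusted p = 8.45e-11), and VanLip also lay below Con at 46.9, 46.1 and 42.9. Klf13 (-0.49 ± 0.09), Maf (-0.56 ± 0.12), Runx1 (-0.33 ± 0.08), Runx3 (-0.52 ± 0.13) and Id2 (-0.36 ± 0.11) fell, Id2 by DESeq2 only. Irf8, which drives monocytes and dendritic cells, had an FPKM of 80.1, 86.4 and 77.9 in Van and 123, 101 and 102 in VanLip (log2 change 0.42 ± 0.10). Of 17 genes of MHC class II presentation, Ciita, the master activator of the class, Cd86, Cd80 and H2-Ab1 were called lower and Cd40 higher, all by DESeq2 only. The list held 1 gene called lower without Van1, Van2, Van3 or VanLip1 in turn, and 2 without VanLip2 or Con3. The summed FPKM of the list was 4357 to 5278 in Van against 2881 to 4311 in VanLip, lowest in VanLip1.

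Among protein-coding members with 2 or more exons, a regulator of the actin cytoskeleton held the lowest adjusted p on the higher side. Arhgap17, which switches off RAC1 and CDC42 (chromosome 7, 123279218 to 123369915, minus strand), had an FPKM of 36.2, 34.5 and 34.0 in Van and 52.0, 55.7 and 54.2 in VanLip (log2 change 0.62 ± 0.06, adjusted p = 1.97e-21), with Con at 49.7, 46.3 and 49.7. Fam65b, an inhibitor of RHOA (chromosome 13, 24582189 to 24733816, plus strand), went from 8.38, 7.82 and 8.62 to 14.7, 15.2 and 14.3 (log2 change 0.84 ± 0.10, adjusted p = 1.63e-14), and Fgd4, an exchange factor for CDC42, from 12.5, 13.1 and 11.9 to 17.3, 17.0 and 17.5 (log2 change 0.51 ± 0.07). Replicates of each group were tight and the groups stood apart in all of these genes, which a rule of no overlap and low adjusted p had picked. A lack of overlap in normalized counts, in either direction, held for 29.7% of 9674 protein-coding members with 2 or more exons. Other genes high in this order were Tnfrsf13b, the receptor TACI for the cytokines BAFF and APRIL (0.84 ± 0.11), the lectin gene Clec2i (0.98 ± 0.12), Coro2a (0.69 ± 0.09), the kinase anchor gene Akap10 (0.40 ± 0.05) and the sialyltransferase gene St3gal2 (0.62 ± 0.09). Larger changes at lower expression were those of Tbc1d2 (1.25 ± 0.27), Upb1 (1.17 ± 0.18) and Plau, the urokinase plasminogen activator, which went from 1.01, 1.42 and 1.29 to 2.42, 2.61 and 2.63. Upb1 is a member only through its VanLip level. Lars2, a mitochondrial leucyl-tRNA synthetase, rose from 14.9, 11.9 and 14.3 to 41.0, 39.4 and 29.2 (log2 change 1.40 ± 0.18), with Con at 15.2, 17.9 and 11.1. The ribosomal RNA gene Rn18s-rs5, described above, was also higher in VanLip, with the same order as Lars2 among the VanLip and Con libraries but not among the Van libraries, and its part in this result was not tested. H2-Q2, at a low level, had a far larger fitted change (log2 change 5.31 ± 0.69), from 0.0685, 0.0223 and 0.0842 to 2.38, 1.98 and 2.66, but it is a member only through its VanLip level and belongs to a family of near-identical class I genes among which reads can be exchanged, and Zbtb22 (0.51 ± 0.07) overlaps Tapbp on the same strand.

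**Figure D4:**
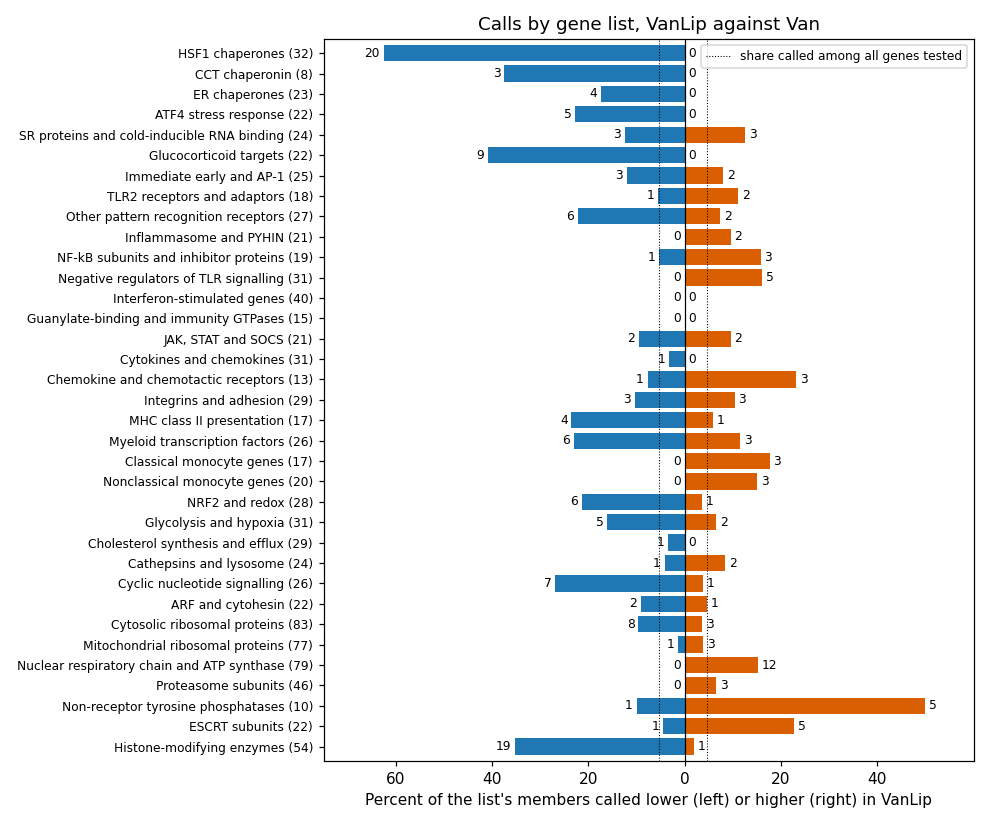
Bars give the percent of each list's members called lower (left, blue) or higher (right, orange) in VanLip by DESeq2, with the number called at the bar's end and the number of members in parentheses; dotted lines mark the share of all genes tested that was called in that direction, 5.28% lower and 4.58% higher. The chaperone list reaches furthest left, with 20 of 32 members, and the interferon-stimulated genes and GTPases have no call.

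Metabolic and housekeeping lists moved by small amounts. Of 79 nuclear genes of the respiratory chain and ATP synthase, 12 were called higher and none lower, 70 had a positive log2 change and the median was 0.11. The calls, such as Ndufb9 (0.34 ± 0.10), Cox8a (0.25 ± 0.08) and Sdhd (0.21 ± 0.07), did not hold across settings: edgeR called 0 of the 79, 22 were higher and 0 lower at an unadjusted p under 0.05, reducing the VanLip libraries at random to the Van depth left 6, and 0 remained without Van1, Van2 or VanLip1, 1 without VanLip2, 7 without Con1, 6 without Con2 and 8 without Con3. Proteasome subunits were similar, with 3 of 46 called higher by DESeq2 and 0 by edgeR, and with 10 higher and 0 lower at an unadjusted p under 0.05. None of the 13 mitochondrially encoded genes was called by DESeq2 or edgeR, with 3 at an unadjusted p under 0.05. Among 28 genes of the NRF2 and redox list, Txnrd1 (-0.63 ± 0.09), Slc7a11 (-0.63 ± 0.15), Fth1 (-0.33 ± 0.07), Srxn1, Gclc and Ftl1 fell (Slc7a11 being a member only through its Van level), of which edgeR called the first 3 named, and Prdx5 rose by 0.39 by DESeq2 only. Fth1, the ferritin heavy chain, was among the most abundant members, at 2197, 2394 and 2195 in Van and 1663, 1989 and 1781 in VanLip. Of 31 genes of glycolysis and hypoxia, 5 fell and 2 rose, of which edgeR called 3 falls and neither rise, and of 29 genes of cholesterol synthesis and efflux, Soat1 alone was called (-0.26 ± 0.07), by DESeq2 only.

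The direction of a call was related to the length of the transcript. When the protein-coding members were divided by transcript length into 4 bins of equal size, 7.03% of the shortest bin were called higher and 2.40% lower in VanLip, and in the longest bin 3.35% were called higher and 13.6% lower. The median transcript length was 2546 bases for genes called higher, 4521.5 for genes called lower and 3069 for all protein-coding members. With counts normalized for GC content and transcript length in each library, the shares were 3.93% and 3.35% in the shortest bin and 6.95% and 7.28% in the longest, and the members called were 590 higher and 573 lower. When VanLip libraries were reduced at random to the Van depth, the trend was still there, with 2.60% higher and 11.8% lower in the longest bin. Under the length correction the chaperone list held 21 falls, the glucocorticoid list 9 and the respiratory chain list 5 rises. The inferred read length and the depth differ between the groups, and their part in this trend cannot be told apart from that of L654.

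**Figure D5:**
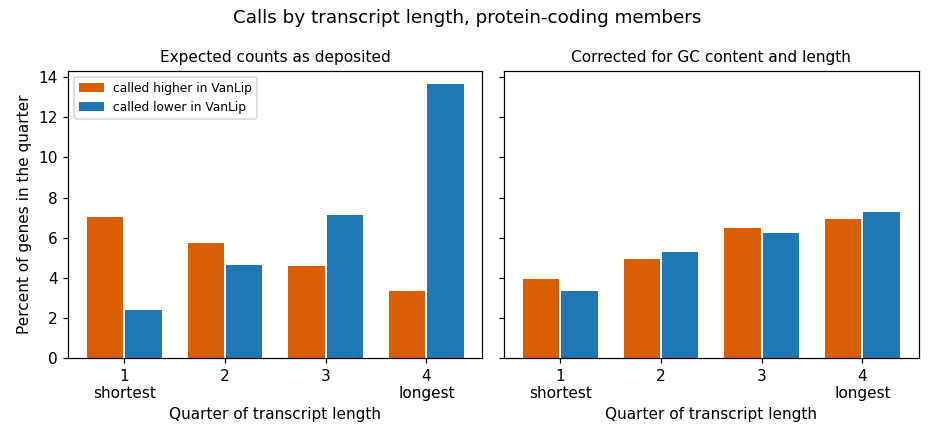
Bars give the percent of protein-coding members called higher (orange) or lower (blue) in VanLip, in 4 bins of transcript length, with the deposited expected counts on the left and after normalization for GC content and length on the right. In the longest bin 13.6% are called lower and 3.35% higher on the left, against 7.28% lower and 6.95% higher on the right.

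The 823 other members held 55 genes called higher and 39 lower. They included 193 protein-coding genes with a single exon, 119 immunoglobulin variable segments, 64 long intergenic RNAs and 45 processed pseudogenes. Their changes were larger, with a median called size of 0.78 on the log2 scale against 0.36 in the protein-coding members with 2 or more exons, and 29 of their 94 calls passed a log2 value of 1.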

How the data were processed

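Spleen monocytes of 9 mice were sequenced (TruSeq Stranded). Per the labels and methods, the authors aligned reads with HISAT2 2.2.1 and SAMtools 1.9, assembled them with StringTie 2.1.3 and imported expected counts for DESeq2 1.38.3; whether counting used strand and which annotation release was used are not given in the sources used here. The deposited expected counts and the FPKM values of the authors, 1 column per mouse, were used here. The import assumed reads of 75 bases, so a count is not 1 read; the commonest low count was 2.00 in VanLip and 1.33 in the other libraries, from which read lengths of 150 and 100 bases were inferred. Total counts were 50210853 to 61383806 in Van, 170503470 to 184720704 in VanLip and 43070361 to 59339748 in Con. Counts were rounded and tested with DESeq2 1.42.0 (Wald test, median-of-ratios size factors, all 9 libraries, group as the only term, Benjamini-Hochberg adjustment over all genes tested, called at an adjusted p of 0.05). Changes are log2 values ± SE. edgeR 4.0.16 and limma 3.58.1 (R 4.3.3) gave alternatives, and mgcv 1.9.3 the correction for GC content and length. The statistical steps were tested on simulated data. Exons and lengths came from GENCODE M21, in which 10473 members matched.

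The members and gene lists were chosen with earlier results of these data known. Genes were named by a fixed rule: called by both tests without overlap and lowest in adjusted p or largest in fold, the called members of each list, and 8 genes whatever their values. Other genes named, and the lists of phosphatases, ESCRT subunits and histone enzymes, were chosen after their values were seen. The mice are separate animals, and replicate numbers were not taken to pair them.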

Additional observations from a re-analysis of the deposited data

How the results depend on the processing

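Alternatives changed the number of calls more than their direction: no member called by DESeq2 changed sign among the calls of any alternative run. Of the 1267 calls, 592 were kept by edgeR, which called 247 members higher and 345 lower, 1136 with TMM library sizes, 970 after the correction for GC content and length and 979 after thinning VanLip. With counts converted to fragments by the inferred read length, 1106 were kept. That run called 1110 members, 460 higher and 650 lower, and 695 by both tests. Limma on log2(FPKM + 1) called 422 members, 158 higher and 264 lower, with a pseudocount of 0.1 it called 245 (97 and 148), and after a filter at a mean FPKM of 1 it called 567 (239 and 328). Members with a mean FPKM of 10 or more held 698 calls, 291 higher and 407 lower, 333 by both tests. With Van and VanLip libraries alone, 319 members were called by both tests. With the replicate number as a block, 347 members were called higher and 562 lower, and 328 by both tests, but same-numbered Van and VanLip libraries did not deviate together, with correlations of -0.19, 0.25 and -0.04. Leaving out each library in turn gave 764 to 1239 calls, 303 to 530 higher, 430 to 709 lower and 213 to 477 by both tests; the cause was not tested. Of 151 genes named or plotted, 66 kept their direction and their side of the threshold in all 21 settings. The sign turned in genes that were not called: Il6 at 0.15 and 0.38 with limma (pseudocounts 1 and 0.1) and -0.54 to 0.32 without single libraries, Tnf at -0.38 to 0.073, Tlr2 at -0.27 to 0.040 and Fos at -0.25 to 0.022 without single libraries, and Nr3c1 at 0.012 after the length correction. With 3 mice a group and depth tied to the group, an effect of depth cannot be told apart from that of L654.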

Other observations

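Further gene groups, of phosphatases, ESCRT subunits and histone-modifying enzymes, also held calls between VanLip and Van. The lists given here were put together after their values had been seen, so their counts describe the data and are not independent evidence. Of 10 non-receptor tyrosine phosphatases, 5 were called higher in VanLip and 1 lower, all by both DESeq2 and edgeR. Ptpn6, which stands above among the negative regulators, is 1 of the 5. Ptpn11, the phosphatase SHP-2, had an FPKM of 22.3, 21.9 and 19.5 in Van and 26.7, 30.4 and 30.2 in VanLip (log2 change 0.45 ± 0.08, adjusted p = 3.33e-06). Ptpn22, which restrains antigen and pattern receptor signals in leukocytes, went from 30.3, 31.9 and 29.99 to 36.8, 42.5 and 41.3 (log2 change 0.37 ± 0.07), and Ptpn7, a phosphatase of MAP kinases, from 3.44, 4.61 and 4.25 to 6.34, 5.49 and 5.17 (log2 change 0.60 ± 0.13). Ptpn23, which works with the ESCRT machinery in endosomal sorting, fell (log2 change -0.45 ± 0.06). In each of the fits left without 1 library, 5 of the phosphatases were called higher.

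Subunits of ESCRT, the machinery that cuts membrane necks at endosomes and in cell division, held 5 genes called higher and 1 lower of 22, and edgeR called 4 higher and 0 lower, with 7 higher and 3 lower at an unadjusted p under 0.05. Histone-modifying enzymes, among them the methyltransferase Kmt2d (-0.40 ± 0.08) and the acetyltransferases Crebbp (-0.31 ± 0.07) and Ep300 (-0.25 ± 0.06), held 19 genes called lower and 1 higher of 54, and 10 and 1 by both tests. Transcripts of these enzymes are long, and with counts normalized for GC content and length the list held 8 lower and 2 higher. It held 9 lower without Van1, 9 without Van2, 12 without VanLip1 and 11 without VanLip2.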
